A study of Homo sapiens with 6 samples.

Results

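The HOX genes, which encode homeodomain transcription factors, were measured in the melanoma line WM164, whose BRAF kinase is mutant. IDTC colony samples had been kept for 60 days in 500 nM PLX4032, the BRAF inhibitor vemurafenib, and their labels call them resistant. Parent samples had received the solvent DMSO, per the series title, and carry the treatment label control. There were 3 samples per group, hybridised to separate single-colour Affymetrix whole-transcript arrays, and all came from that 1 cell line. The design text says that samples were isolated independently, without saying whether the 3 samples of a group were separate cultures. The p-values therefore rest on a spread between samples that may be technical.

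Members were taken by name from a list of 38 HOX genes, whatever their values. A gene was measured where a probe set carried its symbol alone, and the probe set with the highest mean would have been used where a gene had several, although each HOX gene had 1. This gave 27 genes of the 18417 tested on the array. They were 1 of 10 HOXA, all 10 HOXB, 7 of 9 HOXC and all 9 HOXD members. HOXA3, HOXA4, HOXA5, HOXA6, HOXA7, HOXA9, HOXA10, HOXA11 and HOXA13 were not analysed here, so HOXA2 alone stood for its cluster. HOXC4 and HOXC6 shared a probe set and are described apart from the 27.

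In vertebrates the HOX genes lie in 4 clusters, and the order of genes along a cluster follows the order of body regions in which they are switched on. Genes in the same place in different clusters carry the same number and are called paralogues, with low numbers towards the head and high numbers towards the tail, the limb ends and the urogenital tract. Polycomb proteins keep HOX genes silent, proteins of the trithorax and MLL group keep them active, retinoic acid switches on genes at the low-numbered end, and HOX proteins bind DNA together with PBX and MEIS partners. Adult skin cells keep a HOX pattern that reflects where in the body they arose.

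The promoters of the HOX genes that passed the test are shown here, as far as the RefSeq table used held them, because the largest change among the HOX genes was in HOXC5, whose annotated start is that of HOXC4 as well. It held a promoter for 11 of the 27 genes, 3 of which passed the test. Each run covers 250 bases upstream of the annotated start, 5′ to 3′, with matches to TATAAA, the core of the TATA box, in capitals. The windows lie on the plus strand of GRCh38.p14 at chr12:54016638-54016887 for HOXC5, chr2:176092471-176092720 for HOXD13 and chr2:176188418-176188667 for HOXD1.
HOXC5: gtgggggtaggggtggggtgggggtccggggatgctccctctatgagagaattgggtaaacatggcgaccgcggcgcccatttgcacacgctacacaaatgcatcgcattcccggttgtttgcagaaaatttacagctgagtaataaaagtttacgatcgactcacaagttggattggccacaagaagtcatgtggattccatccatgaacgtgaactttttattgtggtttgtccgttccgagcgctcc
HOXD13: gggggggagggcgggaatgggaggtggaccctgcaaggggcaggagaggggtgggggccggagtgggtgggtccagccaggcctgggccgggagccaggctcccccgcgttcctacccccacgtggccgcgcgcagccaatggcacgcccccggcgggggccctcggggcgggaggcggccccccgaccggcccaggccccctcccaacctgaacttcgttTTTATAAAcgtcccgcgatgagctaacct
HOXD1: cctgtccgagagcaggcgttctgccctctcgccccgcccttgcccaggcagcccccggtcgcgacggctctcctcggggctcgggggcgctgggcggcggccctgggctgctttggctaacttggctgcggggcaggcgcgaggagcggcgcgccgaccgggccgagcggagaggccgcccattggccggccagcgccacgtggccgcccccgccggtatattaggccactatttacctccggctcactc

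The HOXC5 window was identical to that of HOXC4, since RefSeq gives both genes the same start. It held 14 CG dinucleotides, HOXD13 21 and HOXD1 31, against a median of 11 over 35116 promoter windows of the same length. HOXD13 held the TATA box letters once on each strand, overlapping in the 1 run in capitals, and was the only 1 of the 11 HOX windows to do so. TATAAA or its complement stood in 10.7% of all windows. AGGTCA, the core motif of retinoic acid receptors, stood in none of the 11 HOX windows and in 12.1% of all windows, both strands searched. TGATTNAT, a joint HOX and PBX motif, stood in 2 of the 11, those of HOXA2 and HOXD11, and in 2.48% of all windows. These matches describe letters in the windows and are not binding sites.

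Values below are the deposited log2 expression values, on which a difference of 1 is a 2-fold change. The medians of the genes tested lay between 6.98 and 7.02 on the 6 arrays, and those of all probe sets between 6.25 and 6.34. A gene is called above the median where it exceeded the median of the genes tested on every array of a group. Probe sets differ in how strongly they respond, so a place above the median describes the deposited values and does not rank genes by their RNA, and whether any value lay above background was not tested. Between groups, genes were tested with limma across all 18417 genes at a Benjamini-Hochberg adjusted p of 0.05.

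Colonies had 11 of the 27 HOX genes above the median and parent cells 10, or 40.7% in colonies and 37% in parent cells, where 49% of all genes were above it in colonies and 48.5% in parent cells. The genes above the median in both groups were HOXB2, HOXB4, HOXB6 and HOXB9 in the HOXB cluster, HOXC9 and HOXC10 in HOXC, and HOXD1, HOXD8 and HOXD13 in HOXD, 9 in all. HOXB3 and HOXC13 were above it on every array in the colonies only, and HOXD4 in parent cells only. HOXB8 was above it on 2 of 3 colony arrays and on none of the parent arrays. The remaining 14, HOXA2 among them, stayed below the median on all 6 arrays, with group means between 4.41 and 6.77.

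**Figure D1:**
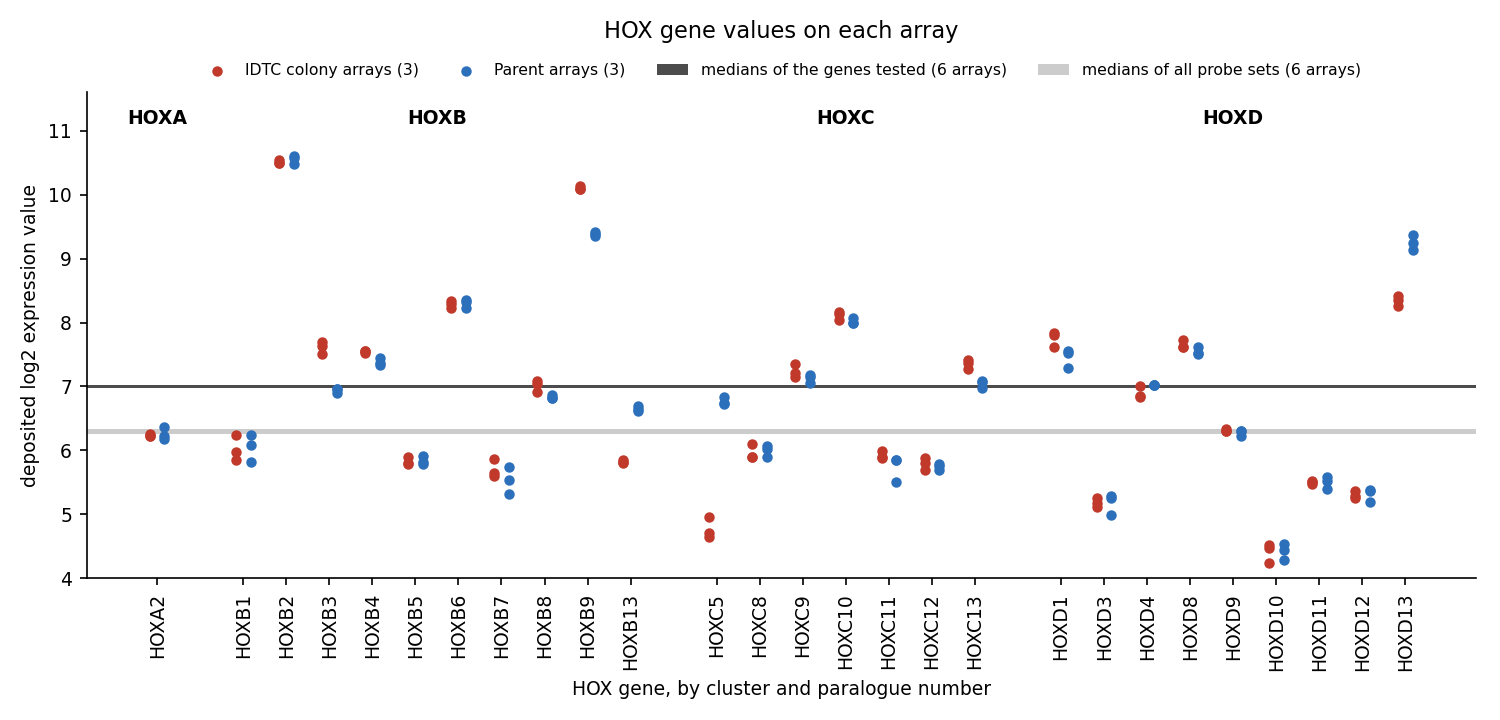
Deposited log2 expression value (vertical axis) of each of the 27 measured HOX genes (horizontal axis, by cluster and paralogue number) on the 3 IDTC colony arrays (red, left of each pair) and the 3 Parent arrays (blue, right). The black band spans the medians of the genes tested (6.98 to 7.02) and the grey band those of all probe sets (6.25 to 6.34). HOXB2 and HOXB9 lie far above both bands in each group, while 14 genes stay under the black band on all 6 arrays.

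Between colonies and parent cells, 9 of the 27 HOX genes passed the test, 6 higher and 3 lower, or 33.3% of them. Among all genes tested the share was 43.8%, with 20.9% higher and 22.9% lower. The 6 higher were HOXB3, HOXB4, HOXB8, HOXB9, HOXC13 and HOXD1, and the 3 lower were HOXB13, HOXC5 and HOXD13. Changes of at least 0.5 on the log2 scale were found in 5 of the 27, HOXB3, HOXB9, HOXB13, HOXC5 and HOXD13, beside 19.3% of all genes. The median change over the 27 was 0.00, beside a median of -0.00 over all genes. In bulk RNA such as this, fewer cells of a type and less RNA per cell cannot be told apart.

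Calls were more frequent among bright genes on these arrays, so the HOX genes are also given by brightness. Of the 11 HOX genes whose mean over the 6 arrays lay above the median gene mean, 6 passed the test, beside 68% of all such genes. Of these 11, 5 were higher (31.2% of all such genes) and 1 lower (36.8%), 3 changed by at least 0.5 (30%), and 7 had groups that did not overlap (76.2%). Of the 16 at or below it, 3 passed, beside 19.5% of all such genes. Of these 16, 1 was higher (10.6% of all such genes) and 2 lower (8.9%), 2 changed by at least 0.5 (8.65%), and 5 had groups that did not overlap (25.4%). In 12 of the 27 the colony and parent arrays did not overlap, against 50.8% of all genes. These were the 9 that passed together with HOXC11, HOXD4 and HOXD8.

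HOXC5, a gene towards the low-numbered end of its cluster, had the largest change of the 27. Its values were 4.64, 4.96 and 4.70 on the colony arrays, against 6.84, 6.73 and 6.74 on the parent arrays. All 3 colony values lay below every parent value, and below the median of all probe sets on their arrays, while the parent values lay above it. HOXC5 fell by 2.0 ± 0.09 on the log2 scale (log2 change ± SE, limma adjusted p = 2.2e-06), a 4.01-fold difference in the deposited values and at percentile 98.9 of all genes by size of change.

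HOXC4 and HOXC6, which overlap HOXC5 in RefSeq, were read by 1 common probe set. It gave 7.54, 7.5 and 7.57 in the colonies, against 7.57, 7.47 and 7.45 in parent cells. The groups overlapped, and the change of 0.04 ± 0.05 did not pass the test (limma adjusted p = 0.68 over all probe sets of the table). The platform lists a coding and a non-coding transcript for the HOXC5 probe set, and which of these changed was not tested.

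HOXD13, which shapes the digits and the lower urogenital tract, also fell. It read 8.35, 8.26 and 8.41 in the colonies, against 9.14, 9.25 and 9.37 in parent cells. Both groups lay above the median and did not overlap. The change was -0.91 ± 0.07 (limma adjusted p = 3.2e-05), or 1.88-fold lower in the colonies.

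HOXB13, a lineage factor of the prostate and the tail end of the body, moved the same way from a dimmer level. Its colony values of 5.85, 5.82 and 5.81 lay under its parent values of 6.65, 6.61 and 6.70. All 6 were below the median of the genes tested, and only the parent values exceeded the median of all probe sets. HOXB13 changed by -0.83 ± 0.05 (limma adjusted p = 6.0e-06).

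HOXC13, a regulator of hair and nail keratin genes, went the other way from its paralogues. It had 7.28, 7.36 and 7.42 in the colonies, against 7.07, 6.98 and 7.08 in parent cells. The groups did not overlap, and the gene rose by 0.31 ± 0.06 (limma adjusted p = 0.0026), a 1.24-fold difference. Paralogue number 13 was thus the only number with more than 1 measured gene at which every measured gene passed, 2 lower and 1 higher. Few genes were measured at any number, and 43.8% of all genes passed, or 68% of those with a mean above the median. Whether number 13 differed from other numbers was not tested. HOXA13 was not analysed here.

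HOXB9, which patterns the thorax in the mouse, had the largest rise. It read 10.13, 10.09 and 10.09 in the colonies, against 9.41, 9.39 and 9.36 in parent cells. The values within a group lay within a few hundredths of each other and far from the other group. The rise was 0.72 ± 0.04 (limma adjusted p = 7.6e-06), or 1.64-fold, and the gene lay above the median in both groups.

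HOXB3, a gene of the hindbrain that also acts in blood stem cells, rose across the median line. Its colony values were 7.64, 7.70 and 7.5, and its parent values 6.89, 6.96 and 6.96. No array of the groups overlapped. The rise was 0.67 ± 0.06 (limma adjusted p = 7.5e-05), or 1.6-fold.

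The last 3 rises were small. HOXB4, known for expanding blood stem cells, had 7.56, 7.55 and 7.52 in the colonies, against 7.45, 7.37 and 7.33 in parent cells (log2 change 0.16 ± 0.05, limma adjusted p = 0.028). HOXB8, which blocks differentiation of myeloid progenitors, had 6.92, 7.04 and 7.08 in the colonies, against 6.82, 6.82 and 6.87 in parent cells (0.17 ± 0.06, limma adjusted p = 0.037). HOXD1, the only measured gene of number 1 besides HOXB1, had 7.84, 7.62 and 7.81 in the colonies, against 7.29, 7.53 and 7.55 in parent cells (0.30 ± 0.09, limma adjusted p = 0.029).

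Although none of these 3 had overlapping groups, their calls were not stable. HOXB4 and HOXB8 no longer passed after either alternative scaling of the arrays, and each lost its call without any 1 of 5 of the 6 arrays. HOXD1 lost its call without colony replicate 1 (limma adjusted p = 0.10), without colony replicate 3 (0.10) or without parent replicate 1 (0.064). Only 3 rises passed without colony replicate 3, against 6 with it. HOXB3, HOXB9, HOXC13 and HOXD13 passed under every alternative tried, and HOXB13 and HOXC5 under every one that kept them in the test.

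**Figure D2:**
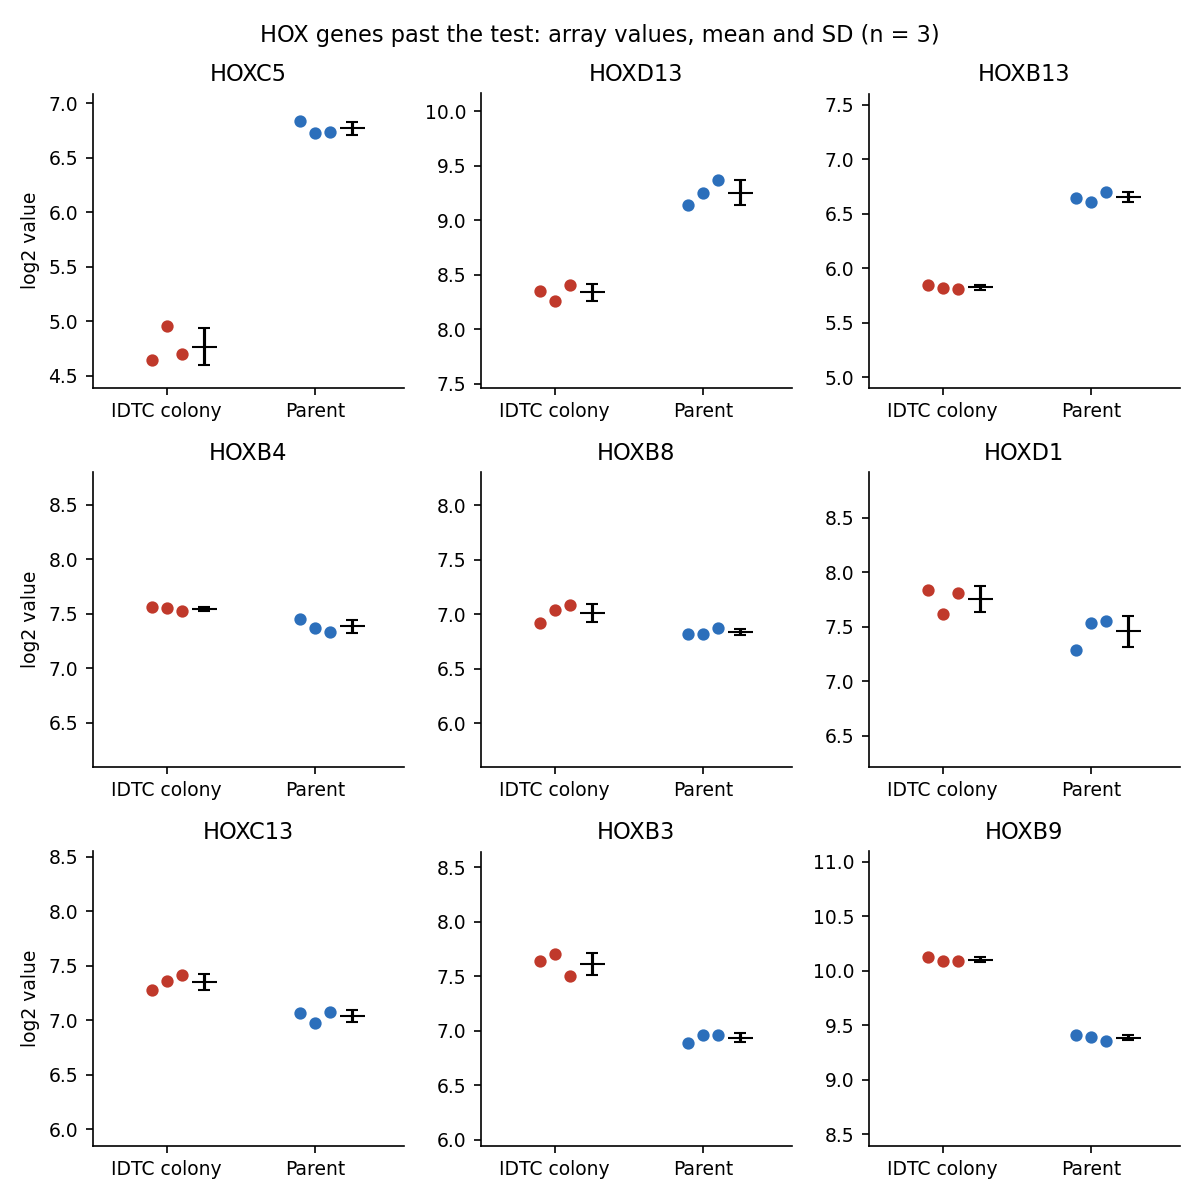
Log2 value (vertical axis, spanning the same range in every panel but centred on the gene) of the 9 HOX genes past the test on the IDTC colony arrays (red, left) and the Parent arrays (blue, right), with the mean and SD of the 3 arrays in black. The gap between groups is widest for HOXC5 (-2.0) and narrowest for HOXB4 (0.16).

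By cluster, 5 of 10 HOXB genes passed, 4 higher and 1 lower, or 50% beside the 43.8% of all genes (20.9% higher and 22.9% lower). In HOXC 2 of 7 passed (28.6%) and in HOXD 2 of 9 (22.2%), 1 higher and 1 lower in each. HOXA2, which gives the hyoid arch of the embryo its identity, was the 1 HOXA gene and did not pass, at 6.23, 6.25 and 6.23 in the colonies, against 6.23, 6.37 and 6.18 in parent cells. Along the clusters, 3 of 8 genes of numbers 1 to 4 passed (37.5%), all 3 higher. Of numbers 5 to 8, 2 of 7 passed (28.6%), 1 higher and 1 lower, and of numbers 9 to 13, 4 of 12 passed (33.3%), 2 in each direction. At numbers 2, 6, 7, 10, 11 and 12 no measured gene passed.

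Paralogues on different clusters did not share a call at numbers 1, 3, 4, 5, 8 and 9, though the difference between paralogues was itself not tested. HOXB3 rose while HOXD3 showed 0.00 ± 0.09 from a mean of 5.18 in each group. HOXC5 fell while HOXB5 showed -0.02 ± 0.05 between means of 5.82 in colonies and 5.84 in parent cells. HOXB9 rose while HOXC9 showed 0.11 ± 0.07 and HOXD9 0.03 ± 0.05. The partners without a call were often dim, with HOXD3, HOXB5, HOXC8 and HOXB1 below the median on all 6 arrays.

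Bright HOX genes that did not pass the test had small changes, though the intervals of HOXC9, HOXC10 and HOXD8 reach past the size of the smallest called rises. HOXB2, which acts in the hindbrain and facial nerve, read 10.54, 10.50 and 10.49 in the colonies, against 10.60, 10.58 and 10.48 in parent cells. Its change was -0.05, with a 95% interval of -0.16 to 0.07. HOXB6, next to HOXB5 and HOXB7 in the trunk group, read 8.29, 8.33 and 8.23 in the colonies, against 8.32, 8.23 and 8.36 in parent cells. Its change was -0.02, with an interval of -0.14 to 0.11.

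HOXC9, which sets thoracic motor neuron identity in the mouse, read 7.21, 7.15 and 7.35 in the colonies, against 7.15, 7.05 and 7.18 in parent cells. HOXC10, a lumbar gene, read 8.04, 8.13 and 8.17 in the colonies, against 8.07, 8.0 and 7.99 in parent cells. In both genes the groups overlapped. Their changes were 0.11 (interval -0.04 to 0.27) and 0.10 (interval -0.02 to 0.22).

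HOXD8, a trunk gene, read 7.73, 7.62 and 7.62 in the colonies, against 7.62, 7.51 and 7.52 in parent cells, with a change of 0.11 (interval -0.02 to 0.23). HOXD4, a gene of the hindbrain and upper spine, read 6.85, 7.01 and 6.83 in the colonies, against 7.02, 7.02 and 7.03 in parent cells. Its change of -0.13 ± 0.06 did not pass (limma adjusted p = 0.13), although it did without colony replicate 2 (-0.19, limma adjusted p = 0.025). Neither gene's groups overlapped, but the nearest arrays of the groups lay about as close as replicates.

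Dim genes without a call are given next, and some of their intervals reach past the size of the smallest called rises. HOXB7, which switches on the growth factor FGF2 in melanoma cells in earlier work, read 5.60, 5.87 and 5.65 in the colonies, against 5.32, 5.53 and 5.74 in parent cells, with a change of 0.18 ± 0.12. HOXC11, a hindlimb gene, read 5.89, 5.99 and 5.88 in the colonies, against 5.51, 5.85 and 5.85 in parent cells, with a change of 0.18 ± 0.10 and 1 parent array below the other two. HOXB1, HOXC8, HOXC12, HOXD10, HOXD11 and HOXD12 showed changes of -0.03, -0.03, 0.04, -0.01, 0.00 and -0.01. Over the 18 genes without a call the changes ran from -0.13 to 0.18 and the 95% intervals from -0.34 to 0.45. Within groups the SDs of the 27 genes ran from 0.01 to 0.21, and 7 genes had repeated values among the 6 arrays. Among these 7 were HOXA2 and HOXD4, with an SD of 0.01 in the colonies and in parent cells, respectively. HOXB9, with SDs of 0.02, had no repeated value. The part of repeated values in the small SDs was not tested.

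**Figure D3:**
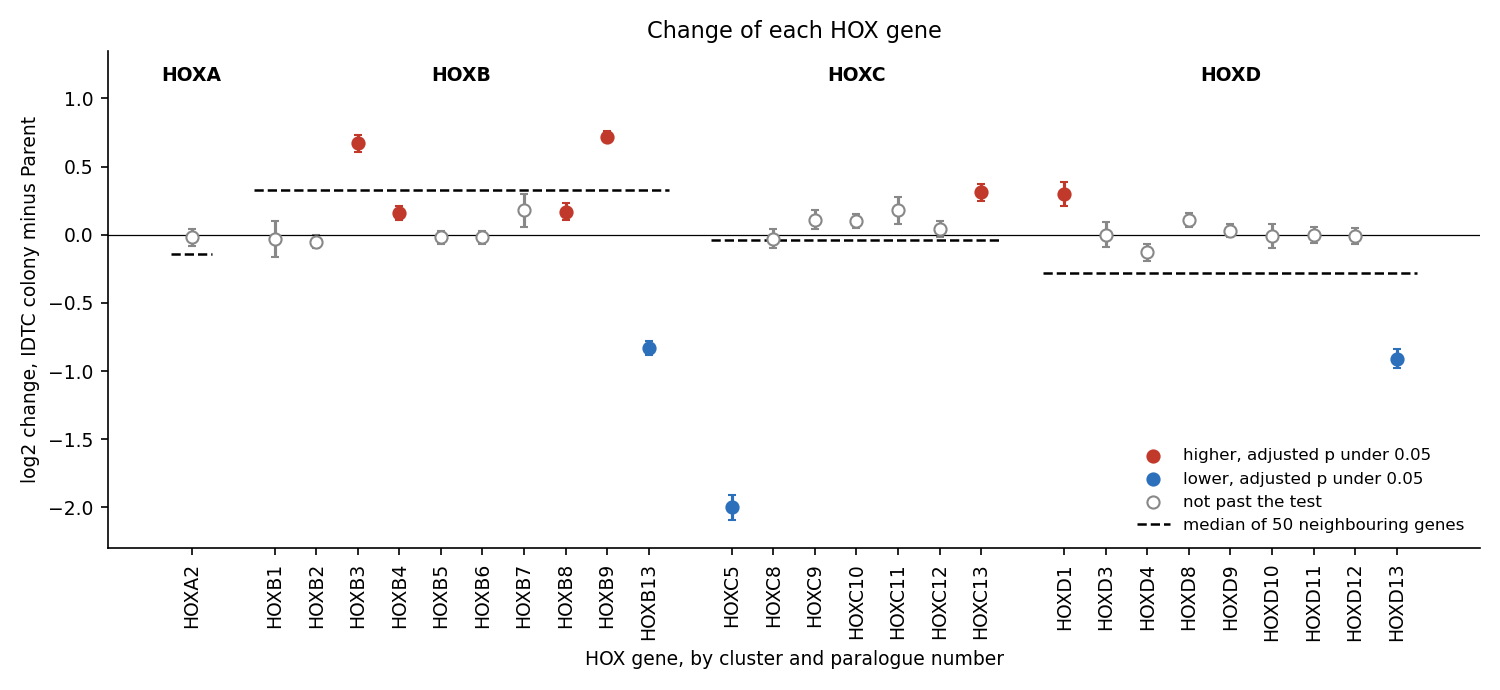
Log2 change, IDTC colony minus Parent (vertical axis, with bars of 1 SE), for each of the 27 HOX genes by cluster and paralogue number (horizontal axis). Red points are higher and blue points lower at an adjusted p under 0.05, open points did not pass, and the dashed lines mark the median change of 50 neighbouring bright genes of each cluster. HOXC5, HOXD13 and HOXB13 lie far below 0, and the HOXB neighbours have a median of 0.33.

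Genes around the clusters were compared as a description of the surroundings. Around HOXB, on chromosome 17, the 50 nearest genes with a mean above the median (25 on each side in GRCh38.p14 gene order) had a median change of 0.33, with 36 higher and 3 lower. Around HOXD, on chromosome 2, the median was -0.28, with 9 higher and 32 lower. The medians were -0.14 around HOXA, on chromosome 7, and -0.04 around HOXC, on chromosome 12. The share past the test was 70% around HOXA, 78% around HOXB, 70% around HOXC and 82% around HOXD, beside 68% of all genes with a mean above the median (31.2% higher and 36.8% lower). Beside these, HOXB9 (0.72) and HOXB3 (0.67) lay above their neighbours' median and HOXB4 (0.16) and HOXB8 (0.17) below it, and HOXB13 (-0.83) moved against it. In HOXD, HOXD13 (-0.91) moved in the direction of its neighbours' median and HOXD1 (0.30) against it. The part of the surroundings in these changes was not tested.

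Among listed genes known to lie next to the clusters, 35 were measured, with 11 higher, 9 lower and a median change of 0.02, or 57.1% past the test beside 43.8% of all genes. Of the 35, 27 were above the median in the colonies, and of all genes with a mean above the median 68% passed, against 19.5% of the others. NFE2L3, a stress response transcription factor gene on the HOXA side, rose by 1.51 ± 0.05. CALCOCO2, an autophagy receptor gene beyond HOXB13, rose by 1.01 ± 0.06, with means of 9.58 in colonies and 8.57 in parent cells (limma adjusted p = 9.9e-06). EVX2, the homeobox gene just outside HOXD13, showed -0.03 ± 0.06 and did not pass, whereas LNPK, the next gene, changed by -0.45 ± 0.05. MTX2, a mitochondrial import gene beyond HOXD1, changed by -0.58 ± 0.08. The last 3 were named after their values were seen, as the neighbours of HOXD13 and HOXD1.

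Of 21 listed non-coding genes inside the clusters 6 were measured, and HOTAIR and HOTTIP were among those not analysed here. The 6 were dim and none passed the test by limma, beside 19.5% of all genes with a mean at or below the median. HOXA-AS2 changed by -0.16 ± 0.07 and HOXB-AS3 by 0.05 ± 0.06. The arrays also read the precursors of microRNAs that lie between HOX genes and act on HOX transcripts. Their mature forms are shown with the seed, bases 2 to 8, in capitals, since miR-196a is known to cleave HOXB8 transcripts.
hsa-miR-10a-5p: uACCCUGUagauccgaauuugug
hsa-miR-196a-5p: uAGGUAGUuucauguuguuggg

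The seeds differ, and miR-196a-5p arises from genes in the HOXB and the HOXC cluster. MIR196A1 showed 0.10 ± 0.07 and MIR196A2 -0.10 ± 0.09, while HOXB8 rose by 0.17 with a call that was not stable. Whether miR-196a acted on HOXB8 in these cells was not tested. MIR10A, which lies beside HOXB4, showed 0.07 ± 0.06, and MIR10B, beside HOXD4, 0.02 ± 0.04. The precursor probe sets do not measure the mature forms.

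The list of HOX cofactors held homeodomain factors of the TALE class and PBXIP1, a PBX-binding protein of another class. Of its 12 measured genes 5 rose and 3 fell, with a median change of 0.16. All 12 were above the median in the colonies, and 66.7% passed the test, beside 68% of all genes with a mean above the median. MEIS2 fell, with 8.14, 8.15 and 8.21 in the colonies, against 9.00, 8.92 and 9.02 in parent cells (-0.82 ± 0.05, limma adjusted p = 8.8e-06). PBX3 fell as well, with 8.40, 8.50 and 8.46 in the colonies, against 9.12, 8.87 and 8.98 in parent cells (-0.54 ± 0.07). PKNOX2, a MEIS relative, rose, with 9.10, 9.08 and 9.08 in the colonies, against 8.47, 8.48 and 8.47 in parent cells (0.62 ± 0.04, limma adjusted p = 1.3e-05).

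Smaller rises were seen in PBX4 (0.19 ± 0.06) and PKNOX1 (0.20 ± 0.05), while MEIS1 (0.12 ± 0.07) and MEIS3 (0.20 ± 0.08) did not pass. TGIF1, a repressor that competes for MEIS sites, changed by -0.85 ± 0.07 and PBXIP1, an inhibitor of PBX binding, rose by 0.85 ± 0.06. All 8 calls of this list held under both alternative scalings.

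Of 26 measured Polycomb genes 13 were higher and 6 lower, with 7 not past the test and a median change of 0.15 over the list. This was 73.1%, beside 68% of all genes with a mean above the median, and 25 of the 26 were above it on every colony array. EZH1, a catalytic subunit of the repressive complex, rose by 0.94 ± 0.05, and JARID2, which helps bring that complex to its targets, by 0.93 ± 0.04. EZH2, the other catalytic subunit, went down, with 8.78, 8.83 and 8.75 in the colonies, against 9.61, 9.63 and 9.64 in parent cells (-0.84 ± 0.04, limma adjusted p = 4.7e-06). EZH2 was named after its values were seen, as the partner of EZH1. With the arrays shifted to a common median 10 rose and 6 fell, and with quantile normalization 15 rose and 6 fell.

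Genes of the MLL and trithorax group were divided, with 8 higher and 9 lower of 28 measured and a median of -0.01, or 60.7% past the test beside the same 68%. DOT1L, a histone methyltransferase tied to active HOX genes, changed by -0.63 ± 0.05 and WDR5, a core subunit of MLL complexes, by -0.52 ± 0.06. KMT2A, the founding MLL gene, showed 0.10 ± 0.06 and did not pass. It was named for its role after its value was seen.

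Of 15 measured genes of retinoid synthesis and response, 5 rose and 3 fell, with a median of 0.02, or 53.3% past the test beside 43.8% of all genes. ALDH1A3 (2.62 ± 0.10) and ALDH1A1 (1.53 ± 0.08), which make retinoic acid, had the largest changes. RDH10, also of this list and named after its value was seen, changed by -1.09 ± 0.05. HOXB1 and HOXA2, at the low-numbered end that responds to retinoic acid in embryos, showed -0.03 ± 0.13 and -0.02 ± 0.06. Of the other measured genes of numbers 1 to 4, HOXD1, HOXB3 and HOXB4 rose, and HOXB2, HOXD3 and HOXD4 did not pass. ALDH1A3 and ALDH1A1 had parent means below the median. ALDH1A2, of the same family and also measured, was dim in both groups and did not pass (0.08 ± 0.08).

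**Figure D4:**
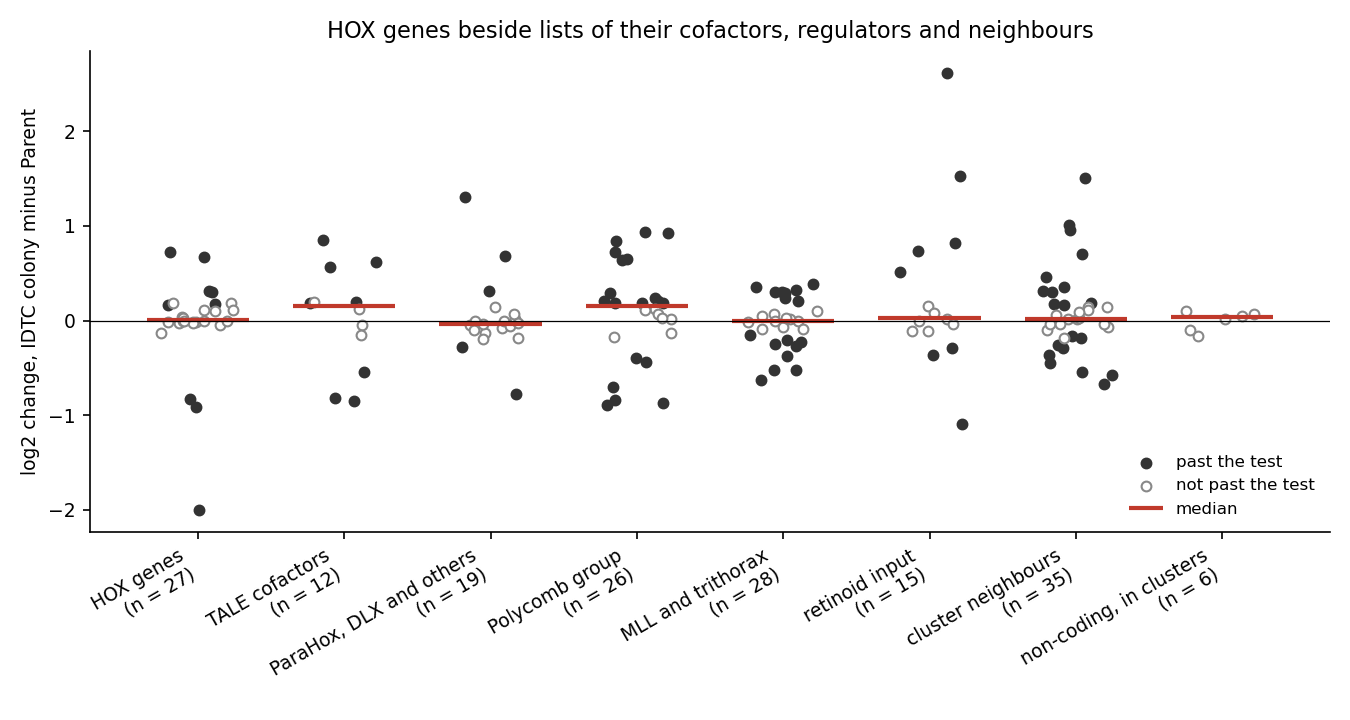
Log2 change, IDTC colony minus Parent (vertical axis), of the HOX genes and of each gene list (horizontal axis, with the number of genes measured). Filled points passed the test, open points did not, and red lines are medians, which lie between -0.04 and 0.16 in every column. Of the points, 19 of 26 are filled for Polycomb genes, 8 of 12 for the TALE cofactor list, 9 of 27 for HOX genes and none for the non-coding genes. The lists differ in brightness. Of all genes 43.8% passed, with 68% of those with a mean above the median and 19.5% of the others.

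Markers of the melanocyte lineage were bright in both groups, with 7 of 8 above the median in each, and 4 of the 8 rose while 2 fell. Past the test were 75% of the melanocyte list, 33.3% of the fibroblast, 42.9% of the leukocyte and 14.3% of the endothelial list. Among all genes the share was 43.8%, and 68% among those with a mean above the median. MLANA changed by -1.45 ± 0.04 and PAX3 by 0.95 ± 0.06. Of 12 fibroblast markers 1 rose and 3 fell, with list means of 6.07 to 6.11 on the colony arrays and 6.32 to 6.40 on the parent arrays, and PRRX1, a mesenchymal homeobox gene outside the HOX clusters, at -3.06 ± 0.05. Of 7 leukocyte markers none rose and 3 fell (means 5.77 to 5.81 in colonies and 6.47 to 6.55 in parent cells). These were LYZ (-2.35 ± 0.10), FCER1G (-1.44 ± 0.11) and CD68 (-1.27 ± 0.05), with CD68 at 9.81, 9.73 and 9.80 in colonies and 11.09, 11.03 and 11.04 in parent cells. PTPRC, the pan-leukocyte marker, had 3.71 in colonies and 3.67 in parent cells. No keratinocyte marker of 6 passed (means 5.45 to 5.49 in colonies and 5.41 to 5.59 in parent cells), and 1 of 7 endothelial markers rose (5.20 to 5.26 in colonies and 5.13 to 5.26 in parent cells). All samples came from the 1 line WM164, and whether any cells of these other types were present, or had a part in the HOX changes, was not tested.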

How the data were processed

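RNA of 3 IDTC colony and 3 Parent samples was read on single-colour arrays. Samples were grouped by their titles. The authors deposited log2 values per probe set, on a log scale judged by their range. The program named in the submitters' processing notes is Affymetrix Expression Console, and its version and normalization were not given in the sources used here. Precision is limited by the number of arrays. Of the 33297 probe sets 19460 had 1 gene symbol in the platform annotation, 1754 several and 12083 none, and 19429 of the first matched the reference gene table (GRCh38.p14) by Entrez ID. For the 769 genes with several probe sets the one with the highest mean was used, giving 18417 genes, dim ones included.

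Differences, colony minus parent, were tested 2-sided in limma (lmFit, eBayes) with group as the only term and adjusted by Benjamini-Hochberg over all genes at 0.05. In simulated data of 18417 genes, 67 had a change of 0.5, 67 of 1 and 66 of 2, and 18217 had none. Of these, 67.2% of changes of 0.5, 97% of changes of 1 and all changes of 2 were called. Recovery with a share of changed genes as large as the 43.8% called on these arrays was not tested. The HOX members, 7 gene lists and markers were chosen with earlier results of these data known. Named were HOX genes past the test or above the median, the 2 largest calls of each list, and the measured PBX, MEIS and PKNOX genes. Alternatives were quantile normalization, arrays shifted to a common median, a test of the brighter genes alone, the mean of probe sets, every single-symbol probe set, a robust eBayes with trend, a replicate block, each array left out, and other lines for brightness. R 4.3.3, limma 3.58.1, Python 3.11.15, numpy 2.4.6, pandas 2.3.3 and matplotlib 3.10.9 were used.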

Additional observations from a re-analysis of the deposited data

How the results depend on the processing

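Of 191 recomputed changes of the 15 HOX genes that passed the test or lay above the median in a group, 167 kept their direction and side of the threshold, 20 lost a call (HOXB4, HOXB8 or HOXD1), 1 gained one (HOXD4, without colony replicate 2) and 3 of uncalled genes crossed 0. Leaving out an array gave 3 to 4 higher and 3 to 4 lower HOX genes, the 3 higher without colony replicate 3, and 3384 to 3860 higher and 3733 to 4494 lower genes over the whole array. Over the remaining settings 4 to 6 HOX genes were higher. With only genes above the median mean, 1 HOX gene was lower, since HOXB13 and HOXC5 were not tested there. With the 75th percentile as the line, 2 HOX genes were above it in colonies and 3 in parent cells, and with the median of all probe sets 13 in colonies and 15 in parent cells. With the replicate block 4 HOX genes were higher and 3 lower, and HOXB4 (adjusted p = 0.058) and HOXB8 (adjusted p = 0.054) lost their calls. No pairing by number was seen, as deviations of same-numbered arrays correlated at -0.0886, -0.0587 and -0.00962 across genes, and no sample correlated best with its own number. With 3 arrays per group this check cannot exclude shared handling by number. Each HOX gene had 1 probe set, so the mean of probe sets changed none of their values.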

Other observations

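Homeobox genes related to the HOX family but outside the 4 clusters were measured in 19 cases, with 3 higher, 2 lower and a median change of -0.04, or 26.3% past the test beside 43.8% of all genes. The changes lay in the DLX genes, which pattern the jaw, forebrain and limbs and lie as linked pairs. DLX5 rose most, with 7.89 on all 3 colony arrays, against 6.80, 6.36 and 6.57 on the parent arrays (1.31 ± 0.10, limma adjusted p = 3.5e-05), and its linked gene DLX6 rose by 0.68 ± 0.05. DLX2 went down, with 6.82, 6.88 and 6.85 in the colonies, against 7.63, 7.63 and 7.65 in parent cells (-0.78 ± 0.04, limma adjusted p = 4.9e-06), and its linked gene DLX1 changed by -0.28 ± 0.05. DLX4 rose by 0.31 ± 0.08 and DLX3 showed -0.04 ± 0.08. None of the ParaHox genes GSX1, GSX2, PDX1, CDX1, CDX2 and CDX4 passed the test by limma. DLX1, DLX3, DLX4 and DLX6 were named after their values were seen. With either alternative scaling of the arrays GBX1 and EN2 also passed as lower.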
